A study of Mus musculus with 8 samples.

Results

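The p53 targets and BCL2 family genes of apoptosis were described across granule neuron precursors (GNPs) and medulloblastomas of the mouse. The set was a list of 39 genes of the p53 pathway, the BCL2 family and the caspase arm, and a member counted as measured if a row of the array table carried its symbol alone. By that rule 36 of the 39 were measured, among 14351 genes with a row of their own and 16317 rows in all. Trp53, Bax and Birc2 were not analysed here. No member had more than 1 row, so no choice between rows was needed.

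The protein p53 is a transcription factor that is kept low by the ubiquitin ligase Mdm2 and its partner Mdm4, and that accumulates after DNA damage or when the Cdkn2a product Arf binds Mdm2. It then switches on genes that stop the cell cycle, repair DNA, adjust metabolism or start apoptosis. The BCL2 family decides whether the mitochondrial membrane is opened. BH3-only proteins such as Bbc3 (Puma), Pmaip1 (Noxa) and Hrk bind some or all of the anti-apoptotic members Bcl2, Bcl2l1 and Mcl1. This frees the effectors Bax and Bak1, after which cytochrome c, Apaf1 and Casp9 form the apoptosome. GNPs divide in the outer layer of the young cerebellum and give rise to its granule neurons, and mice with 1 mutant copy of Ptch1 develop medulloblastomas from them, more readily when p53 is absent.

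RNA was measured on Affymetrix whole-transcript arrays, with 1 array for each of 8 samples. The 2 Ptc+/- GNP samples came from mice with 1 targeted Ptch1 allele, and the 2 Gli1-FLAG GNP samples from RosaGli1-FLAG c/c mice crossed with Math1Cre, in which Cre driven by Math1 (Atoh1) turns on a FLAG-tagged Gli1 in cells of that lineage. Both were purified at postnatal day 8. The 4 medulloblastomas came from adult mice that combine RosaGli1-FLAG c/c and Math1-Cre with Ptc+/-, and so carry both alterations, and the labels used here name no purification of tumour cells. No group has both genes unaltered, and age, purification and the joint genotype differ between tumours and GNPs together, so they cannot be told apart. The labels call the replicates biological without tying each to its own animal. The p-values therefore measure only how far these samples spread, and part of that spread may be technical.

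Values are log2(intensity + 1) after quantile normalization, and median intensities before it ran from 109 to 310. The means of 8 GNP markers lay at 10.79 to 10.96 in Ptc+/- GNPs, 10.82 to 10.85 in Gli1-FLAG GNPs and 10.80 to 11.29 in tumours, so these markers were present in each group. In tumours against Ptc+/- GNPs 3 of the 8 rose (Atoh1, Barhl1 and Mycn) and 2 fell (Pax6 and Meis1). Of 7 measured endothelial markers 0 rose and 5 fell in tumours against Ptc+/- GNPs, with mean levels of 7.48 to 8.82 in Ptc+/- GNPs, 8.13 to 8.14 in Gli1-FLAG GNPs and 6.27 to 6.41 in tumours. Of 8 microglial markers 4 rose and 0 fell, from 7.16 to 7.39 in Ptc+/- GNPs and 7.27 to 7.43 in Gli1-FLAG GNPs to 7.90 to 9.07 in tumours. The mean of 7 astrocyte and Bergmann glia markers was 8.35 to 8.80 in Ptc+/- GNPs and 9.06 to 9.16 in Gli1-FLAG GNPs. On medulloblastomas 1 to 4 it was 8.01, 8.59, 5.01 and 7.92, where 0 rose and 0 fell, with 5 of the 7 differences below 0. That of 8 Purkinje cell and interneuron markers was 6.04 to 6.14 in Ptc+/- GNPs and 6.19 to 6.29 in Gli1-FLAG GNPs. In tumours it was 7.75, 9.31, 5.04 and 5.52, where 1 rose (Pvalb) and 1 fell (Pax2). Of 7 oligodendrocyte lineage markers 3 rose (Olig1, Olig2 and Pdgfra) and 0 fell past the threshold used below. The other 4 (Mbp, Mog, Mag and Cnp) had log2 fold changes of -0.49 to -2.03 without passing it. Means of the 7 were 7.97 to 8.03 in Ptc+/- GNPs, 8.56 to 8.60 in Gli1-FLAG GNPs and 7.02 to 9.20 in tumours. The mean of 8 markers of maturing granule neurons was 8.69 to 8.81 in Ptc+/- GNPs, 8.94 to 8.97 in Gli1-FLAG GNPs and 9.60, 10.50, 9.47 and 8.09 in tumours, where 0 rose and 1 fell (Cntn2). The Y-linked Eif2s3y and Kdm5d were at most 4.55 on 3 arrays, both of Gli1-FLAG GNPs and medulloblastoma 3, and at least 7.39 on the others. That level of 4.55 serves below as a mark for signals that cannot be told from background. In bulk samples, fewer cells of a type and less RNA per cell cannot be told apart.

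Tumours were first compared with Ptc+/- GNPs, the contrast that the study's design names. Among the members that passed, pro-apoptotic genes of the BCL2 family rose (Hrk, Bbc3 and Bok) and the anti-apoptotic Mcl1 fell, as did Mdm2 and the initiator caspase gene Casp8. The p53 targets moved both ways, with Phlda3, Sesn2 and Zmat3 rising and Plk2 and Btg2 falling. In limma's fit, with Benjamini-Hochberg adjustment over all rows and a threshold of 0.05, 11 of 36 members passed (30.6%), against 16.5% of all rows. Of these 6 rose, against 7.54% of all rows, and 5 fell, against 8.92%. The arrays of the groups did not overlap for 22 members (61.1%), 9 higher and 13 lower in every tumour, against 42% of all rows. The median log2 fold change was -0.21 over the members and 0.01 over all rows. With arrays centred on their medians in place of quantile normalization, the median of all rows moved to 0.13, the median of the members was -0.17, 4 members rose and 5 fell, and Polk and Perp, which did not pass, changed sign.

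**Figure D1:**
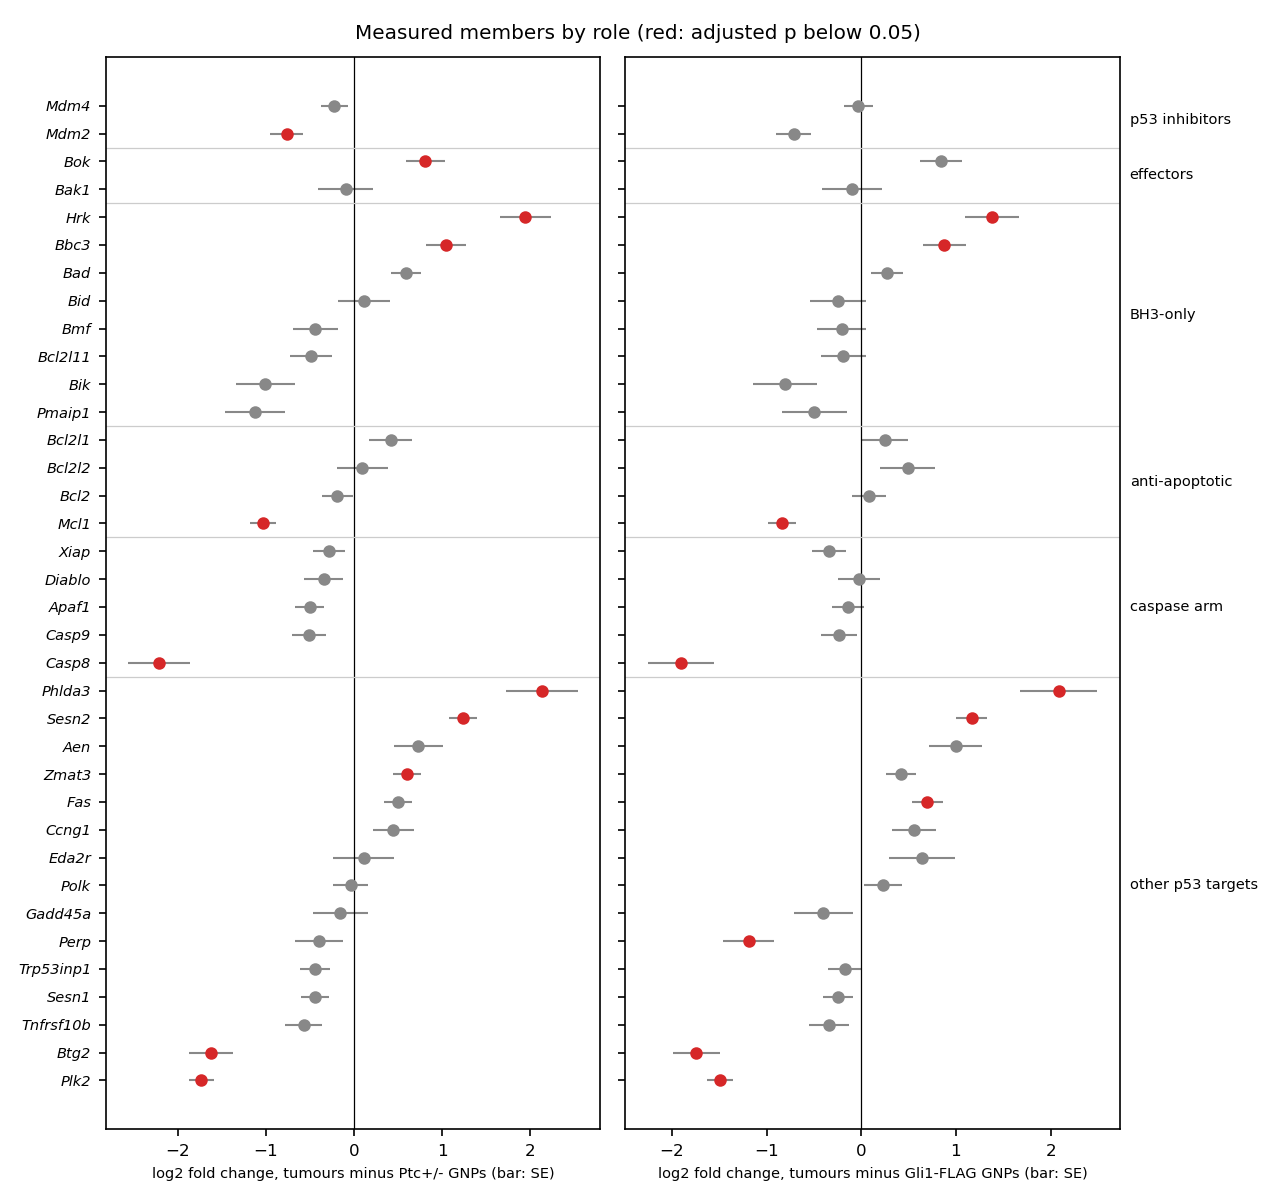
Log2 fold change (x axis) of each of the 36 measured members (y axis, grouped by role) for tumours against Ptc+/- GNPs on the left and tumours against Gli1-FLAG GNPs on the right, with bars for the SE and red points for an adjusted p under 0.05. Phlda3, Hrk and Sesn2 lie farthest right on the left panel, and Casp8, Plk2 and Btg2 farthest left.

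Of the 2 measured inhibitors of p53, Mdm2 fell and Mdm4 did not pass. Mdm2 (transcript cluster 6777346), which encodes the ubiquitin ligase that degrades p53 and is itself switched on by p53, stood at a log2 intensity of 9.05 and 9.35 in Ptc+/- GNPs and 8.36, 8.27, 8.34 and 8.76 in tumours. Every tumour lay below both Ptc+/- GNP samples, a 1.70-fold difference (log2 fold change -0.77 ± 0.18, SE; adjusted p = 0.0326). Mdm4, which encodes a relative that binds p53 and masks its activation domain, was at 9.29 and 9.26 in Ptc+/- GNPs and at 9.05, 8.99, 9.27 and 8.89 in tumours. Medulloblastoma 3 lay within the range of the Ptc+/- GNPs and the other tumours below it (-0.22 ± 0.15; adjusted p = 0.345). The call of Mdm2 was lost without any 1 array except medulloblastoma 4 (adjusted p = 0.123 and 0.187 without Ptc+/- GNP 1 or 2, 0.0713 and 0.0714 without Gli1-FLAG GNP 1 or 2, and 0.0688, 0.0550 and 0.0511 without medulloblastoma 1, 2 or 3), and with the arrays of these groups alone (0.0715).

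The sequence before the annotated start of Mdm2 is shown because Mdm2 is the one member past the threshold with a match to the p53 half-site consensus there. It spans chr10:117710759-117711008 of GRCm38.p6, minus strand, with the match in capitals, and was taken from RefSeq.
Mdm2: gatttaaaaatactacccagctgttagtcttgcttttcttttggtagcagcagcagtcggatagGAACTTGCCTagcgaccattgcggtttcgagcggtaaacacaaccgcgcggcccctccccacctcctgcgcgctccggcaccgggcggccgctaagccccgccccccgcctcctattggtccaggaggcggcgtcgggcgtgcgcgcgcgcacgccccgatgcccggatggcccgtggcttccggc
Promoter windows (250 bases before to 50 after each annotated start) were found for 33 of the 39 genes, at 48 starts. The half-site consensus, which is its own reverse complement and so covers both strands, was in 11 of these 48 windows (22.9%) and in 8.36% of all 32851 windows. The 11 belong to 10 genes, since overlapping windows of Aen share 1 match. The genes are Aen, Bax, Birc2, Bmf, Ccng1, Gadd45a, Mdm2, Polk, Sesn1 and Trp53. A pair of half-sites with 0 to 13 bases between them was in 0 of the 48 and in 0.0731% of all. The GLI consensus GACCACCCA, searched on both strands, was in 0 of the 48 and in 0.253% of all. A match is a description of letters only, and the known p53 elements of several targets, Mdm2 among them, lie in introns, outside these windows.

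Of the 10 measured pro-apoptotic BCL2 family genes, 3 rose, 0 fell and 7 did not pass (30% passed, against 16.5% of all rows). Their median log2 fold change was 0.01, with 5 genes above 0 and 5 below. The largest difference was that of Hrk (transcript cluster 6933818), a BH3-only gene known from neurons deprived of growth factor, at 7.65 and 7.79 in Ptc+/- GNPs and at 9.58, 9.93, 10.11 and 9.05 in tumours. All tumours were above both GNP samples, medulloblastoma 4 the least so, and the fitted difference was 3.85-fold (log2 fold change 1.95 ± 0.29, SE; adjusted p = 0.00886). Bbc3, which encodes Puma, a main p53-induced killer in GNPs after irradiation, was at 6.13 and 6.71 in Ptc+/- GNPs and at 7.48, 7.52, 7.72 and 7.13 in tumours. The Ptc+/- GNP arrays differed more from each other than the Hrk arrays did, and the groups did not overlap (1.04 ± 0.22; adjusted p = 0.0238). Bok, which encodes an effector that can act without Bax and Bak1, was at 9.27 and 9.13 in Ptc+/- GNPs and at 9.99, 9.66, 9.93 and 10.46 in tumours (0.81 ± 0.22; adjusted p = 0.0466).

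The other BH3-only genes were split. Pmaip1, which encodes Noxa, the partner of Mcl1 and a p53 target, was at 6.91 and 7.11 in Ptc+/- GNPs and at 6.41, 5.15, 5.84 and 6.13 in tumours. Each tumour lay below both GNP samples, but the difference missed the threshold (-1.13 ± 0.34; adjusted p = 0.0618) and passed it with cyclic loess (0.0351), without dim rows (0.0435), with 1 weight per group (0.0478) or with an offset of 16 (0.0414). Bcl2l11, which encodes Bim, was at 8.41 and 8.26 in Ptc+/- GNPs and at 7.96, 7.50, 8.31 and 7.61 in tumours, where medulloblastoma 3 overlapped the GNPs (-0.49 ± 0.24; adjusted p = 0.198). Bad, whose product is held in check by survival kinases, was higher in every tumour (0.59 ± 0.17; adjusted p = 0.0507). It passed with cyclic loess (0.0398), without dim rows (0.0313), with 1 weight per group (0.0492), with an offset of 16 (0.0377), with 1 row per gene (0.0477) and without medulloblastoma 3 (0.0496). Bmf and Bid overlapped. Bik was at 5.09 and 5.70 in Ptc+/- GNPs and at 3.66, 4.63, 4.63 and 4.63 in tumours. Each tumour was lower, without passing (-1.01 ± 0.34; adjusted p = 0.0814). These tumour values lie close to or under 4.55, so the size is not exact. The effector gene Bak1 was at 7.95 and 7.92 in Ptc+/- GNPs and at 8.42, 8.10, 7.22 and 7.62 in tumours. Its tumours lay on both sides of the GNPs (-0.09 ± 0.31; adjusted p = 0.864).

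Without Ptc+/- GNP 1 the calls of all 3 rising genes of the family were lost (adjusted p = 0.0969 for Hrk, 0.187 for Bbc3 and 0.192 for Bok), as they were without Ptc+/- GNP 2 (0.0556, 0.0527 and 0.206). Bbc3 and Bok also lost theirs without Gli1-FLAG GNP 1 (0.0551 and 0.0879) or 2 (0.0552 and 0.0882), without medulloblastoma 1 (0.0525 and 0.0871) and with the arrays of these groups alone (0.0558 and 0.0881). Bok lost its call also without medulloblastoma 3 (0.0619) and with median centring of the arrays (0.0861). Of 8 microglial markers 4 rose in the same comparison, as did the oligodendrocyte lineage markers Olig1, Olig2 and Pdgfra. The other 4 markers of that lineage, Mbp, Mog, Mag and Cnp, differed by -0.49 to -2.03 without passing. The part of either list in the rises of Hrk, Bbc3 and Bok was not tested.

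Of the 4 anti-apoptotic genes 1 fell and 3 did not pass (25% passed, against 16.5% of all rows). Mcl1 (transcript cluster 6899694), which encodes a short-lived guardian that sequesters Bim, Noxa and Bak1 and on which neural precursors depend, was at 10.91 and 10.73 in Ptc+/- GNPs and at 9.78, 9.72, 9.71 and 9.96 in tumours. The tumours were close together and all below the GNPs, a 2.04-fold difference (log2 fold change -1.03 ± 0.15, SE; adjusted p = 0.00810), and the call was lost only without Ptc+/- GNP 1 (0.0894) among the 17 other settings run. Bcl2, the founding member of the family, was at 7.62 and 7.24 in Ptc+/- GNPs and at 7.48, 7.11, 7.21 and 7.15 in tumours (-0.19 ± 0.18; adjusted p = 0.494). Bcl2l1, which encodes Bcl-xL, the guardian of differentiating neurons, was at 9.33 and 9.39 in Ptc+/- GNPs and at 9.80, 9.97, 10.07 and 9.26 in tumours. Medulloblastoma 4 lay below both GNP samples and the other tumours above them (0.42 ± 0.24; adjusted p = 0.278). Bcl2l2 (Bcl-w) was at 8.02 and 7.82 in Ptc+/- GNPs and at 8.15, 8.63, 7.59 and 7.70 in tumours, with tumours on both sides (0.10 ± 0.29; adjusted p = 0.849).

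Of the 5 measured genes of the caspase arm 1 fell (20%, near the 16.5% of all rows that passed). All 5 differences were below 0. Casp8 (transcript cluster 6749736), which encodes the initiator caspase of death receptors, was at 7.09 and 6.63 in Ptc+/- GNPs and at 4.91, 4.00, 4.40 and 5.28 in tumours. All tumours were lower, by 4.64-fold in the fit (log2 fold change -2.21 ± 0.35, SE; adjusted p = 0.0108). Medulloblastomas 2 and 3 lay under 4.55, where signal cannot be told from background, so this fold is not exact. The call was lost without Ptc+/- GNP 1 (adjusted p = 0.109) or 2 (0.0522). Apaf1, which encodes the scaffold of the apoptosome, was at 8.81 and 8.51 in Ptc+/- GNPs and at 8.28, 7.92, 8.26 and 8.18 in tumours, each below both GNP samples (-0.50 ± 0.17; adjusted p = 0.0798). Casp9, which encodes the caspase that Apaf1 activates, was at 8.59 and 8.42 in Ptc+/- GNPs and at 7.80, 8.06, 8.32 and 7.81 in tumours. These too did not overlap, and the difference passed only without medulloblastoma 3 (-0.51 ± 0.19; adjusted p = 0.113, and 0.0491 without that tumour). The X-linked Xiap, whose product blocks caspases, differed by -0.29 ± 0.18 (adjusted p = 0.308), and Diablo, whose product relieves that block, by -0.34 ± 0.22 (adjusted p = 0.323). Endothelial markers fell in the same tumours as Casp8, Mcl1 and Mdm2, and their part in these falls was not tested.

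**Figure D2:**
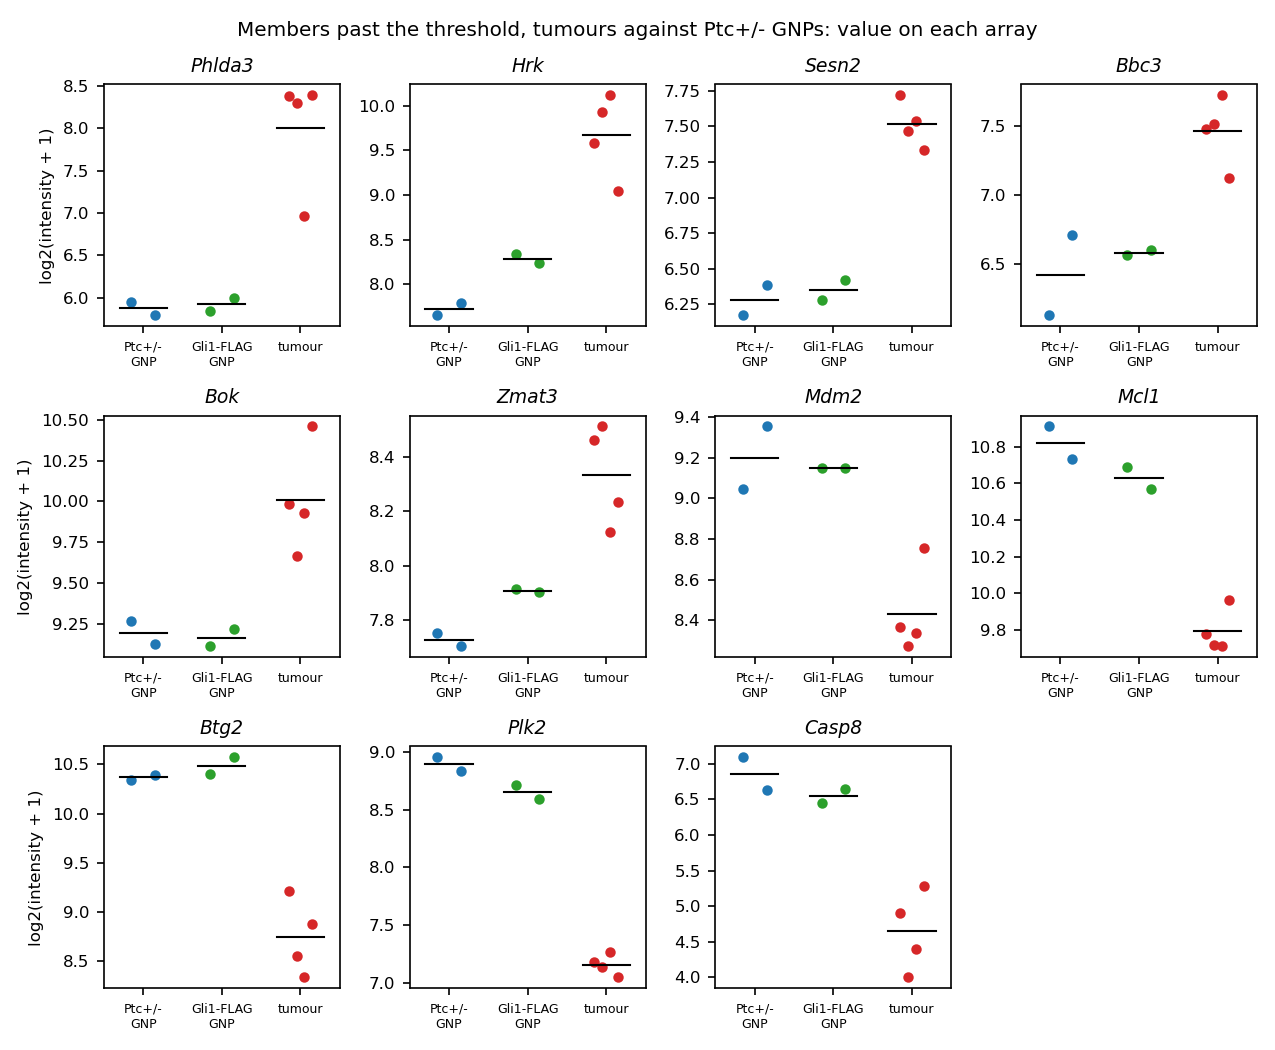
Log2(intensity + 1) on each array (y axis; each panel has its own scale) for the 11 members past the threshold in tumours against Ptc+/- GNPs, with points for arrays and lines for group means (n = 2, 2 and 4). In each panel every tumour lies above or below both Ptc+/- GNP arrays, and for Phlda3 medulloblastoma 3 lies apart at 6.96.

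Of the 15 other p53 targets 3 rose, 2 fell and 10 did not pass, with a median of -0.04 (33.3% passed, against 16.5% of all rows). Phlda3 (transcript cluster 6753394), which encodes a small protein that restrains Akt by competing for membrane lipids, was at 5.95 and 5.79 in Ptc+/- GNPs and at 8.38, 8.30, 6.96 and 8.39 in tumours. Medulloblastoma 3 was well below the other tumours and still above both GNP samples, and the fitted difference was 4.39-fold (log2 fold change 2.13 ± 0.41, SE; adjusted p = 0.0171). Sesn2, which encodes a stress-induced inhibitor of mTORC1, was at 6.17 and 6.38 in Ptc+/- GNPs and at 7.72, 7.47, 7.54 and 7.33 in tumours. The tumours lay close together, 2.36-fold higher (1.24 ± 0.16; adjusted p = 0.00644). Its relative Sesn1 moved the other way in sign and did not pass (-0.44 ± 0.16; adjusted p = 0.0947). Zmat3, which encodes an RNA-binding zinc finger protein, was at 7.75 and 7.70 in Ptc+/- GNPs and at 8.46, 8.51, 8.12 and 8.23 in tumours (0.60 ± 0.16; adjusted p = 0.0414).

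The largest falls among the targets were those of Plk2 and Btg2. Plk2 (transcript cluster 6810166), which encodes a polo-like kinase also induced by neuronal activity, was at 8.95 and 8.83 in Ptc+/- GNPs and at 7.18, 7.14, 7.27 and 7.05 in tumours. The tumours spanned a range of 0.22 and lay 3.32-fold below the GNPs (log2 fold change -1.73 ± 0.14, SE; adjusted p = 0.00132), and the call held in all 17 other settings run. Btg2 (transcript cluster 6762345), an antiproliferative gene that marks the last divisions of neural precursors, was at 10.34 and 10.39 in Ptc+/- GNPs and at 9.22, 8.55, 8.34 and 8.88 in tumours. All were lower, by 3.08-fold (-1.62 ± 0.25; adjusted p = 0.00968).

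Immediate early genes, which cells induce within minutes of a stimulus, moved with these 2 falls. The gene Fos was at 11.01 and 11.32 in Ptc+/- GNPs and at 6.90, 6.39, 7.58 and 6.71 in tumours (adjusted p = 0.00104), and Atf3, Egr1, Junb and Ier2 also fell (-3.94, -2.42, -1.22 and -1.91). Those 5 genes were chosen after their values were known. Egr1 lost its call without either Ptc+/- GNP array (adjusted p = 0.0937 and 0.0708) and Junb without the second (0.103). Their part in the falls of Plk2, Btg2 and Mcl1 was not tested.

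The sequences before the starts of Plk2 and Btg2 are shown because they share a motif. Both hold the cAMP response element TGACGTCA, in capitals, which reads the same on both strands. It was in 3 of the 48 windows of these genes (6.25%), the third being Birc2, and in 1.79% of all windows. The CArG box, searched by its consensus, was in 0 of the 48 and in 1.63% of all. The sequences are from RefSeq, GRCm38.p6, at chr13:110394794-110395043 on the plus strand for Plk2 and chr1:134079156-134079405 on the minus strand for Btg2.
Plk2: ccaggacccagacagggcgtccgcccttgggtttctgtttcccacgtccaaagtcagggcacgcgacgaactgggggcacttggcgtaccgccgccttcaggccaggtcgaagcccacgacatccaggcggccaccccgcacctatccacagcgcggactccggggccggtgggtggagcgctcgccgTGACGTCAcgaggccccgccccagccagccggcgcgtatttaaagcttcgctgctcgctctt
Btg2: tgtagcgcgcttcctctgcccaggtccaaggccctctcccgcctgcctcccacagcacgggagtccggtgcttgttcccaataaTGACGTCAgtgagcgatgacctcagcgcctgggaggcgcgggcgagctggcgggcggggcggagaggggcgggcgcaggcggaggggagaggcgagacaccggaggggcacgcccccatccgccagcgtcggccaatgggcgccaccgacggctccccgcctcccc
In Plk2 the motif starts 62 bases before the annotated start and in Btg2 166 bases before it. Whether any factor bound there in these cells was not measured.

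Of the targets that did not pass, Aen, which encodes an apoptosis-enhancing nuclease, was higher in every tumour (0.73 ± 0.28; adjusted p = 0.113), with medulloblastoma 1 highest at 9.15. Every tumour was also higher for Fas, which encodes a death receptor (0.50 ± 0.16; adjusted p = 0.0749, and passing without dim rows). Trp53inp1, Sesn1 and Tnfrsf10b were lower in every tumour, by 0.44 to 0.57, without passing. Ccng1, Eda2r, Polk, Gadd45a and Perp overlapped. Without Ptc+/- GNP 1 every call of a target but that of Plk2 was lost (adjusted p = 0.122 for Phlda3, 0.0842 for Sesn2, 0.200 for Zmat3 and 0.0894 for Btg2), and without Ptc+/- GNP 2 those of Phlda3, Zmat3 and Btg2 (0.0963, 0.181 and 0.0631). Zmat3 also lost its call without either Gli1-FLAG GNP array (0.0895 and 0.0894), without medulloblastoma 1 or 2 (0.0823 and 0.0626), with median centring (0.0641) and with the arrays of these groups alone (0.0903). In all, the count of members past the threshold was 1 without Ptc+/- GNP 1 and 3 without Ptc+/- GNP 2, when 0.784% and 2.82% of all rows passed. It was 7 without Gli1-FLAG GNP 1 or 2 or without medulloblastoma 1, when 7.54%, 7.52% and 10.7% of all rows passed.

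The tumours differed among themselves. Medulloblastoma 3 was the lowest of the 4 tumours for 8 of the 15 targets (53.3%), against 23.8% of all rows, and the highest for 5 (33.3%), against 28.9%. The 8 were Phlda3, Ccng1, Eda2r, Zmat3, Fas, Btg2, Trp53inp1 and Polk. The cyclin gene Ccng1, a classic p53 target, was at 9.57 and 9.39 in Ptc+/- GNPs and at 10.17, 10.20, 9.43 and 9.89 in tumours. Medulloblastoma 3 lay among the GNPs and the other tumours above them (0.44 ± 0.23; adjusted p = 0.228), and Ccng1 passed only without medulloblastoma 3 (adjusted p = 0.0477). Eda2r, an X-linked gene for a receptor of the tumour necrosis factor family, was at 8.02 and 7.81 in Ptc+/- GNPs, at 7.52 and 7.25 in Gli1-FLAG GNPs and at 8.63, 7.66, 7.43 and 8.38 in tumours. Its 3 lowest arrays were those with little Y-linked signal, and these readings cannot be told apart from genotype in the GNPs.

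Genes outside the set were read beside this. The cell cycle inhibitor Cdkn1a (p21), the best-known p53 target, was at 7.61 and 7.28 in Ptc+/- GNPs and at 8.99, 8.39, 7.80 and 8.77 in tumours. All tumours were above the GNPs and medulloblastoma 3 was the lowest of them (1.04 ± 0.32; adjusted p = 0.0647). Among the 33 further p53 targets measured outside the set, medulloblastoma 3 was more often the lowest tumour than the highest. It was the highest for Xpc (8.54), Ddit4 (10.87), Tigar, Ercc5, Prkab1 and Ccnk. Besides Cdkn1a, it was the lowest for Abhd4 (7.69), Ephx1 (6.83), Ckap2, Gtse1, Tgm2, Ptpn14, Cd82, Psrc1, Ptp4a3, Tap1, Zfp365 and Dcxr. Over all rows it was the highest for 28.9% and the lowest for 23.8%. Cdkn2a, which encodes p16 and Arf, was at 5.15 and 5.27 in Ptc+/- GNPs and at 8.08, 7.33, 9.65 and 8.76 in tumours. Here medulloblastoma 3 was the highest. Among the members, the DNA damage response gene Gadd45a was highest in medulloblastoma 3 (9.66, against 8.45 to 9.09 in the other tumours). In the same tumour astrocyte and Bergmann glia markers had a mean of 5.01, against 7.92 to 8.59 in the other tumours, and oligodendrocyte lineage markers one of 7.02. Purkinje cell and interneuron markers were at 5.04, against 7.75, 9.31 and 5.52 on medulloblastomas 1, 2 and 4. Microglial markers, at 7.90, and markers of maturing granule neurons, at 9.47, were above all GNP arrays there. The part of these markers in how the tumours differed was not tested. Over all 36 members the median range between tumours was 0.77, against 0.67 over all rows.

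**Figure D3:**
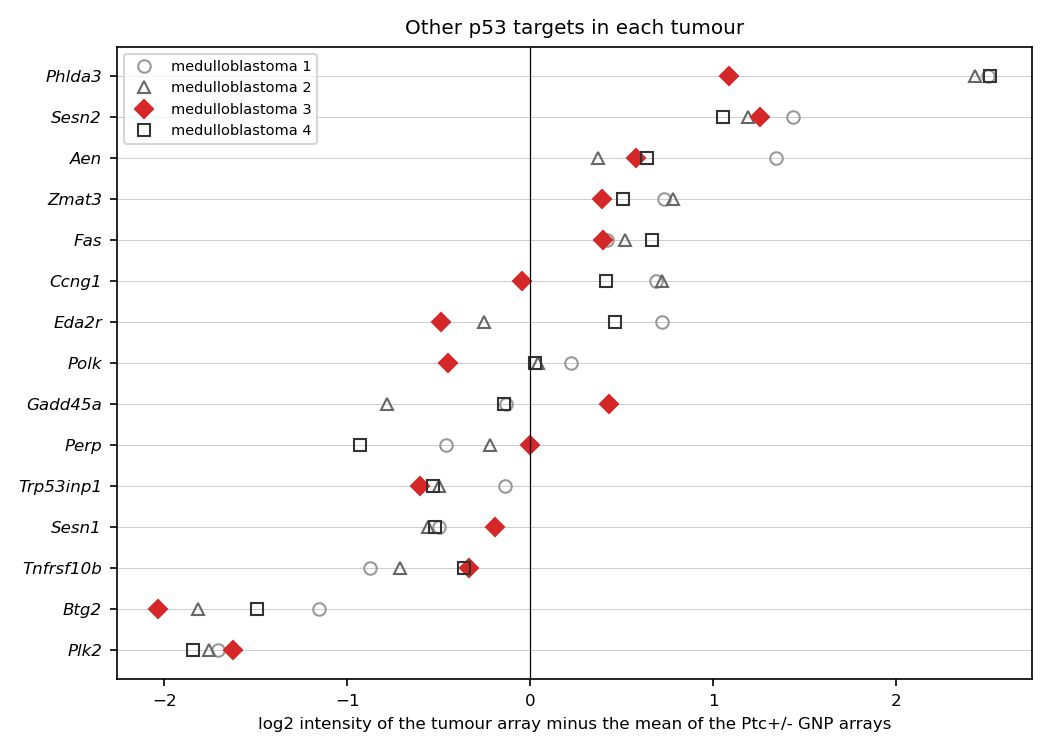
Log2 intensity of each tumour array minus the mean of the Ptc+/- GNP arrays (x axis) for the 15 other p53 targets (y axis), with 1 symbol per tumour and medulloblastoma 3 filled in red. Medulloblastoma 3 is the leftmost tumour for 8 of the 15 genes, farthest from the others for Phlda3.

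Tumours were then compared with Gli1-FLAG GNPs, which carry the transgene that the tumours also carry. This comparison and the first share the tumour arrays, so their values are given side by side and are not independent. Of 36 members 10 passed (27.8%), against 10.3% of all rows, 5 rising against 4.65% of all rows and 5 falling against 5.63%. Groups did not overlap for 20 members (55.6%), against 41% of all rows, and the median was -0.12, with 0.00 over all rows. Hrk was at 8.34 and 8.24 in Gli1-FLAG GNPs, above the Ptc+/- GNPs and below all tumours (log2 fold change 1.38 ± 0.29, SE; adjusted p = 0.0302, where it was 1.95 against Ptc+/- GNPs). Bbc3 rose by 0.88 ± 0.22 (adjusted p = 0.0499), Phlda3 by 2.09 ± 0.41 (adjusted p = 0.0253) and Sesn2 by 1.17 ± 0.16 (adjusted p = 0.00947).

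The falls against Gli1-FLAG GNPs were led by Casp8 (-1.90 ± 0.35; adjusted p = 0.0218), Btg2 (-1.74 ± 0.25; adjusted p = 0.0103), Plk2 (-1.50 ± 0.14; adjusted p = 0.00228) and Mcl1 (-0.84 ± 0.15; adjusted p = 0.0182). Fas was at 6.45 and 6.78 in Gli1-FLAG GNPs and at 7.23, 7.33, 7.21 and 7.48 in tumours, where it rose (0.70 ± 0.16; adjusted p = 0.0394). Perp, which encodes a membrane protein of desmosomes and of p53-driven death, was at 5.95 and 5.52 in Gli1-FLAG GNPs and at 4.49, 4.73, 4.95 and 4.02 in tumours. It fell (-1.19 ± 0.27; adjusted p = 0.0375), with 2 tumours under 4.55, so the size is not exact. Mdm2 missed the threshold here (-0.71 ± 0.18; adjusted p = 0.0513), as did Bok (0.84 ± 0.22; adjusted p = 0.0537), and both passed it with an offset of 16 (0.0343 and 0.0374) and in 6 of the other settings. Also short of it was Zmat3 (0.42 ± 0.16; adjusted p = 0.133). Immediate early and endothelial genes fell and microglial genes rose in this comparison too, with Fos at -4.30 (adjusted p = 0.000919), 4 of 7 endothelial markers falling and 4 of 8 microglial markers rising, and their part was not tested.

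Without Gli1-FLAG GNP 1, 0 members passed, when 0.380% of all rows did, and without Gli1-FLAG GNP 2 only Plk2 did, with adjusted p = 0.0625 for Plk2 without the first. Without the first or second, the adjusted p was 0.208 or 0.144 for Mcl1, 0.173 or 0.172 for Casp8, 0.142 or 0.101 for Sesn2 and 0.109 or 0.120 for Btg2, whose calls held in every other setting run. It was 0.212 or 0.196 for Hrk, 0.210 or 0.163 for Phlda3, 0.300 or 0.247 for Bbc3, 0.332 or 0.156 for Fas and 0.296 or 0.163 for Perp. Without Ptc+/- GNP 1 or 2, whose group enters only the shared spread and the normalization, these 5 lost their calls by narrower margins (adjusted p = 0.0574 and 0.0575 for Hrk, 0.0512 and 0.0505 for Phlda3, 0.0588 and 0.0588 for Bbc3, 0.0702 and 0.0700 for Fas, 0.0667 and 0.0670 for Perp). Likewise they did so without medulloblastoma 1 (0.0612 for Hrk, 0.0577 for Phlda3, 0.0964 for Bbc3, 0.0701 for Fas and 0.0798 for Perp). All but Phlda3 did so without medulloblastoma 2 (0.0519 for Hrk, 0.0800 for Bbc3, 0.0609 for Fas and 0.0523 for Perp), and Bbc3 without medulloblastoma 3 (0.0711).

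The GNP groups were compared with each other last. No member passed, 0 of 36, as did 0% of all rows in limma's fit, and at an unadjusted p under 0.05 there was 1 member, Perp, against 3.22% of all rows. Perp was higher in both Gli1-FLAG GNP samples than in both Ptc+/- GNP samples (0.79 ± 0.31; adjusted p = 1.00). The groups did not overlap for 22 members (61.1%), 7 higher and 15 lower in Gli1-FLAG GNPs, against 46.3% of all rows, and the median was -0.19 against 0.00. Apart from Perp, the fitted differences ran from -0.63 for Pmaip1 to 0.57 for Hrk. Y-linked signal went with genotype in these groups, and the 2 cannot be told apart.

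Other genes of the pathway were read from lists that were likewise chosen with earlier results known. Of 19 measured regulators of p53 in tumours against Ptc+/- GNPs, 2 rose and 3 fell (26.3%, against 16.5% of all rows), with a median of -0.31. Cdkn2a rose 9.49-fold (log2 fold change 3.25 ± 0.60, SE; adjusted p = 0.0158), with the values given above. Trp73, which encodes the p53 relative p73, important for neural precursors, was at 6.80 and 7.11 in Ptc+/- GNPs and at 4.12, 4.58, 3.70 and 3.09 in tumours. It fell in the fit (-3.08 ± 0.38; adjusted p = 0.00550), and 3 of the 4 tumours lay under 4.55, so the size is not exact. Trp53bp2, which encodes the p53 partner ASPP2, fell by 0.78 (SE 0.13; adjusted p = 0.0128), and Usp7, which encodes a deubiquitinase of Mdm2 and p53, by 0.63 (SE 0.16; adjusted p = 0.0362). Hipk2, which encodes a kinase that phosphorylates p53, rose (0.68 ± 0.17; adjusted p = 0.0348).

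Of 33 further p53 targets 3 rose and 1 fell, with a median of 0.20. That share, 12.1%, is below the 16.5% of all rows. Dcxr, a carbonyl reductase gene, rose by 1.03 (SE 0.17; adjusted p = 0.0120), Pidd1, which encodes the scaffold that activates caspase 2, by 0.76 (SE 0.17; adjusted p = 0.0274), and the G2 arrest gene Rprm by 1.01 (SE 0.28; adjusted p = 0.0477). Tigar, which encodes a brake on glycolysis, fell by 0.58 (SE 0.16; adjusted p = 0.0451). Among 15 measured caspases and partners 1 rose and 1 fell (13.3%). The effector caspase gene Casp6 was at 7.23 and 7.51 in Ptc+/- GNPs and at 5.73, 4.68, 5.37 and 5.71 in tumours, all lower (adjusted p = 0.00968), and Htra2, a mitochondrial protease gene, rose by 0.98 (SE 0.19; adjusted p = 0.0181).

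Of 16 genes of death receptor signalling 2 rose and 1 fell (18.8%, near the share of all rows). These were the receptor genes Tnfrsf25 (1.35 ± 0.20; adjusted p = 0.00960) and Ngfr, the p75 neurotrophin receptor of GNPs (1.10 ± 0.15; adjusted p = 0.00745), and the inhibitor gene Tnfaip3, which fell by 1.11 (SE 0.28; adjusted p = 0.0361). Of 16 further BCL2 family genes and 4 inhibitors of apoptosis, 0 passed in limma's fit, against 16.5% of all rows. At an unadjusted p under 0.05 there were 3 and 0, against 33.3% of all rows. Without Ptc+/- GNP 1 all 14 of the calls in these lists were lost (adjusted p from 0.0566 for Trp73 to 0.259 for Rprm), and without Ptc+/- GNP 2 all but those of Trp73, Tnfrsf25 and Ngfr (0.0603 for Dcxr to 0.255 for Tigar). Usp7, Hipk2, Tigar, Rprm, Pidd1 and Tnfaip3 also lost theirs without either Gli1-FLAG GNP array (0.0643 for Pidd1 to 0.0942 for Tigar) and without medulloblastoma 1 (0.0518 for Pidd1 to 0.0884 for Rprm). Without medulloblastoma 2 those of Usp7, Hipk2, Tigar and Tnfaip3 were lost (0.0512 for Hipk2 to 0.0712 for Tigar), without medulloblastoma 3 that of Rprm (0.0762), and without medulloblastoma 4 those of Hipk2, Tigar, Rprm and Tnfaip3 (0.0509 for Rprm to 0.0581 for Tigar).

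**Figure D4:**
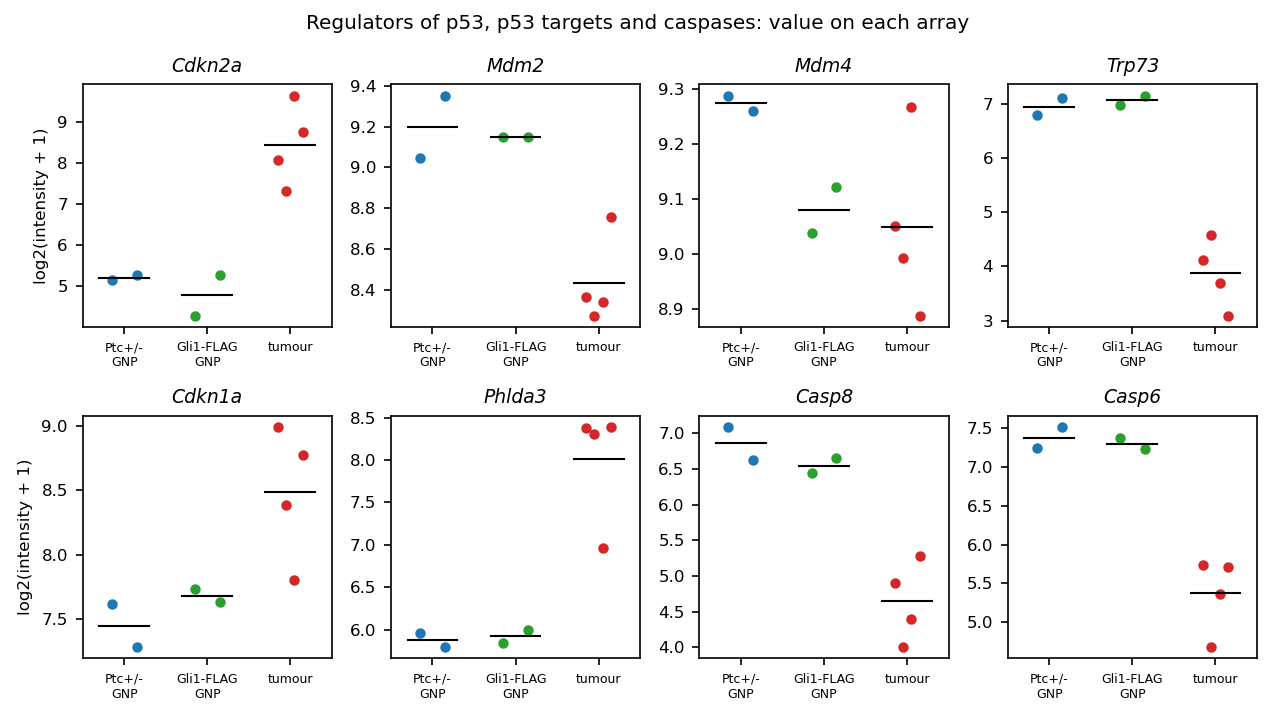
Log2(intensity + 1) on each array (y axis; each panel has its own scale) for p53 regulators (Cdkn2a, Mdm2, Mdm4, Trp73), p53 targets (Cdkn1a, Phlda3) and caspases (Casp8, Casp6), with points for arrays and lines for group means (n = 2, 2 and 4). Medulloblastoma 3, the third point of its group, is the highest tumour for Cdkn2a and the lowest for Cdkn1a and Phlda3.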

How the data were processed

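The deposited values are linear intensities per transcript cluster, given by the authors as whole numbers for 8 arrays. The submitters' processing notes name the build mm8. For background correction, probe summary and scaling no method is given in the sources used here, and array medians show that the intensities were not normalized between arrays. Rows were named through the platform annotation. Of 16317 rows, 14551 had 1 symbol, 1146 several and 620 none here. Intensities were quantile normalized and converted to log2(intensity + 1), so fold changes understate the change of dim genes. Precision is limited by how few arrays there are. The fit used limma 3.58.1 under R 4.3.3 (lmFit and eBayes, 3 group means, all 8 arrays, two-sided, 5 residual and 2.45 prior degrees of freedom) with Benjamini-Hochberg adjustment over all rows. The script was tested on simulated data. Members and lists were chosen with earlier results of these data known. All measured members are named. Those past the threshold and 12 core genes have a value per array for the comparison with Ptc+/- GNPs. Other pathway genes are named if they passed, up to 4 a list by lowest p, with Cdkn1a and Cdkn2a always. Further p53 targets are also named where medulloblastoma 3 was the highest or lowest tumour. Alternatives were other normalizations, filters, offsets and fits, and each array left out. Same-numbered samples did not deviate together (correlations from -0.07 to 0.01). This check is weak, since in a group of 2 arrays the deviations mirror each other.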

Additional observations from a re-analysis of the deposited data

Results flagged for a closer look

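Among the 4 tumours, 3 of the 36 members had 1 array far from the rest, by Dixon's ratio above its critical value for 4 samples. Chance gives about 1 such gene in 20. For Phlda3, medulloblastoma 3 was at 6.96, with the next tumour at 8.30 and the highest at 8.39 (ratio 0.939). For Sesn1, medulloblastoma 3 was the highest at 8.53, with the others from 8.17 to 8.23 (ratio 0.844). For Bik, medulloblastoma 1 was at 3.66 and the others at 4.63 (ratio 1), all of them close to or under the background mark of 4.55.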

How the results depend on the processing

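For tumours against Ptc+/- GNPs, 11 members passed, when 16.5% of all rows did. With the arrays of these groups alone 7 members passed, when 7.34% of all rows did. Leaving out each array in turn gave 1 to 13. For tumours against Gli1-FLAG GNPs, 10 passed, when 10.3% of all rows did. With the arrays of these groups alone 5 passed, and leaving out each array gave 0 to 12. These later counts stand without a share of all rows here and are not read as particular to the members. Between the GNP groups 0 passed in every setting run. Of the 11 calls 1 (Plk2) and of the 10 calls 0 held in all settings, and 0 changed direction. The replicate number, which the labels do not describe as a pairing, gave 10, 0 and 7 calls as a replicate block, where medulloblastomas 3 and 4 drop out. For tumours against Ptc+/- GNPs 12.4% of all rows passed with that block, and the share against Gli1-FLAG GNPs is not given here. Bok (adjusted p = 0.0855), and Bbc3, Fas and Perp against Gli1-FLAG GNPs (0.0737, 0.101 and 0.0656), lost their calls with it. With arrays centred on their medians Perp lost its call against Gli1-FLAG GNPs (0.0868), and Bbc3 did with cyclic loess (0.0586). The filter on dim rows left 33 of 36 members. With 2 arrays in each GNP group, a lone array is assumed to vary like the other groups. The main fit also shares its spread between groups that differ in it. The median SD over all rows was 0.30 in tumours, 0.09 in Gli1-FLAG GNPs and 0.14 in Ptc+/- GNPs. Over the members it was 0.33, 0.09 and 0.12. No detection p-value was used, so levels near 4.55 have no exact fold.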
